A study of Mus musculus with 44 samples.

Results

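Glial and vascular genes measure how much RNA of other cells comes along when the polysomes of one neuron type are pulled out of brain tissue. Here 44 such marker genes were followed, all of which were among the 22682 gene symbols present in every deposited file. They were taken as 6 fixed lists of textbook markers and not by their values: 11 astrocyte, 9 oligodendrocyte, 5 oligodendrocyte precursor and lineage, 9 microglia, 6 endothelial and 4 mural genes. The data were 44 RNA-seq libraries, 28 of polysome-bound RNA (IP) and 16 of RNA from the whole homogenate (input).

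The IPs were made by translating ribosome affinity purification (TRAP), in which a transgene puts EGFP on the ribosomal protein L10a of chosen neurons and anti-GFP beads collect their ribosomes with the mRNA being read. The medial habenula (MHb) and the interpeduncular nucleus (IPN) form one pathway, in which MHb axons release acetylcholine and glutamate onto IPN neurons. All mice were adults over 8 weeks old on a B6J.Cg background. Nicotine groups were 3 ChAT, 3 Amigo1 and 2 Epyc IPs. In the ChAT line, 2 of the nicotine IPs came from mice that drank nicotine tartrate at 500 mg/L with 0.2% saccharin for 6 weeks, and 1 from such mice that also had a saline injection 3 h before collection. The 3 Amigo1 nicotine IPs came from mice on the same nicotine water with saccharin, and the 2 Epyc nicotine IPs from mice with nicotine pumps at 24 mg/kg per day for 10 and 11 days. Control IPs numbered 9 in the ChAT line (4 described as baseline, 2 saccharin, 2 saccharin with a saline injection, 1 saline pump of 14 days), 3 in the Chrna5 line (baseline), 3 in the Amigo1 line (2 baseline, 1 saline pump of 10 days) and 5 in the Epyc line (4 baseline, 1 saline pump of 10 days). Each line had 4 inputs, none from nicotine mice. The library names of the 4 baseline ChAT IPs also hold the word saline, so whether these mice had a saline treatment is not known. In the ChAT line 2 inputs were baseline and 2 were saccharin with a saline injection. Of the 2 baseline inputs, one pooled the left and one the right MHb from 9 males, which may be both sides of the same mice, so the 4 ChAT inputs may stand for 3 separate pools. All 4 Chrna5 inputs were baseline. The Amigo1 and Epyc lines each had 3 baseline inputs and 1 of a saline pump, of 10 days in the Amigo1 line and 11 days in the Epyc line.

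The tag is driven differently in the 2 tissues. ChAT mice (DW167) carry a single BAC transgene that expresses the tagged ribosomal protein in cholinergic cells of the MHb. The IPN lines carry a BAC Cre driver, Chrna5-Cre (SN83), Amigo1-Cre (NP231) or Epyc-Cre (KR363), together with a Cre-dependent tag (Eef1a1-LSL.EGFPL10). In these lines any cell in which Cre was active earlier keeps the tag. Every library pooled 3 to 9 mice, so p-values measure the spread between pools. In IP against input, the ChAT, Amigo1 and Epyc groups mix treatments without a term for them. The ChAT control IPs also mix the gene lists described below. The spread behind those p-values therefore includes these differences.

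Astrocytes take up glutamate and clear potassium around synapses, oligodendrocytes wrap axons in myelin, and their precursors keep dividing in the adult brain. Microglia are the resident macrophages, and endothelial cells with the mural cells around them (pericytes and smooth muscle) form the capillaries and small arteries. In a neuron-specific line these cells are not meant to carry the tag, and TRAP studies use their transcripts as a measure of homogenate RNA in an IP. Some of these genes can also be read by neurons, and a driver can be active in other cells. A fall of a marker shows less of its RNA relative to all RNA. Between inputs of different tissues, fewer cells of a type cannot be told apart from less RNA per cell.

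Levels below are CPM, counts scaled to the library total in the 22682 shared symbols, and are compared between libraries, not between genes. Unless nicotine is named, IPs are control IPs. Where single values are given, the last Amigo1 and Epyc value of each fraction is that of a saline pump library. In the Epyc line that IP and that input came from different pools. Libraries held 7908401 to 70481509 counts in genes and 6887062 to 60618532 in the shared symbols. Over the shared symbols, a floor of 3 counts lay between 0.0495 and 0.436 CPM. The fewest counts and the highest floor were those of the Amigo1 saline pump IP. That IP also had the largest shares of reads outside genes (27.3%) and not uniquely aligned (57%). The driver genes were higher in the IPs of their own line: Chat averaged 122 ± 40.3 CPM in ChAT IPs and 12.6 ± 2.72 CPM in inputs (SD, n = 9 and 4). Chrna5 averaged 381 ± 119 CPM in Chrna5 IPs and 120 ± 15.1 CPM in inputs (SD, n = 3 and 4), and Epyc 18 ± 5.65 CPM in Epyc IPs and 1.98 ± 0.672 CPM in inputs (SD, n = 5 and 4). Amigo1 stood closest to its input, at 137 ± 35.7 CPM in Amigo1 IPs and 96.7 ± 8.31 CPM in inputs (SD, n = 3 and 4), with an edgeR adjusted p of 0.0303. Of 12 pan-neuronal genes, 4 were higher and 4 lower in ChAT IPs, 9 and 1 in Chrna5 IPs, 5 and 1 in Amigo1 IPs and 7 and 1 in Epyc IPs. Of all genes tested, 23.7% were higher and 29.4% lower in ChAT IPs. These shares were 14.2% and 18.8% in Chrna5 IPs, 13.9% and 16.8% in Amigo1 IPs and 15.9% and 20.2% in Epyc IPs. The files use 3 gene lists: all inputs and all Chrna5 IPs share the first, all Amigo1 and Epyc IPs have the second, and the ChAT IPs are spread over all 3. For the Amigo1 and Epyc lines, gene list and fraction therefore cannot be told apart, and the Chrna5 line is the only one whose IPs and inputs were all counted on one list.

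The first question was how far the markers were reduced in the IPs of each line. In Chrna5 IPs all 44 members were lower than in inputs, against 18.8% of all genes tested called lower and 14.2% called higher (edgeR quasi-likelihood test, adjusted p under 0.05). In ChAT IPs 33 members were lower and 1, the endothelial gene Pecam1, was higher, against 29.4% and 23.7% of all genes. Without either of the 2 baseline ChAT inputs, 32 members were lower and 1 higher. Amigo1 IPs had 32 of 44 members lower and none higher, against 16.8% and 13.9% of all genes. In Epyc IPs 39 of the 43 members tested were lower and none higher, against 20.2% and 15.9% of all genes, and Cldn5 had too few counts to be tested. The median log2 difference of the members was -2.75 in the ChAT line, -4.15 in the Chrna5 line, -2.48 in the Amigo1 line and -3.48 in the Epyc line, while the median of all genes tested lay between -0.04 and 0.01. Over the 4 lines, 28 members were lower in all 4, 8 in 3, 4 in 2 and 4 in only 1. Counts rested on the libraries used: without the Amigo1 saline pump IP, 39 members were lower in the Amigo1 line, and without the first baseline Amigo1 input 25. With a term for the gene list in a fit of all 44 libraries, 2 members were called in the Amigo1 line, 5 in the Epyc line and 28 in the ChAT line, with median log2 differences of -1.44, -2.23 and -2.83. That term is estimated from ChAT control IPs alone, since no other group of libraries varies in list. It therefore cannot separate list from fraction in the Amigo1 and Epyc lines. Its value for the second list rests on saccharin saline IP 1 and the saline pump IP of the ChAT line. List and saline procedure therefore cannot be fully told apart in it.

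**Figure D1:**
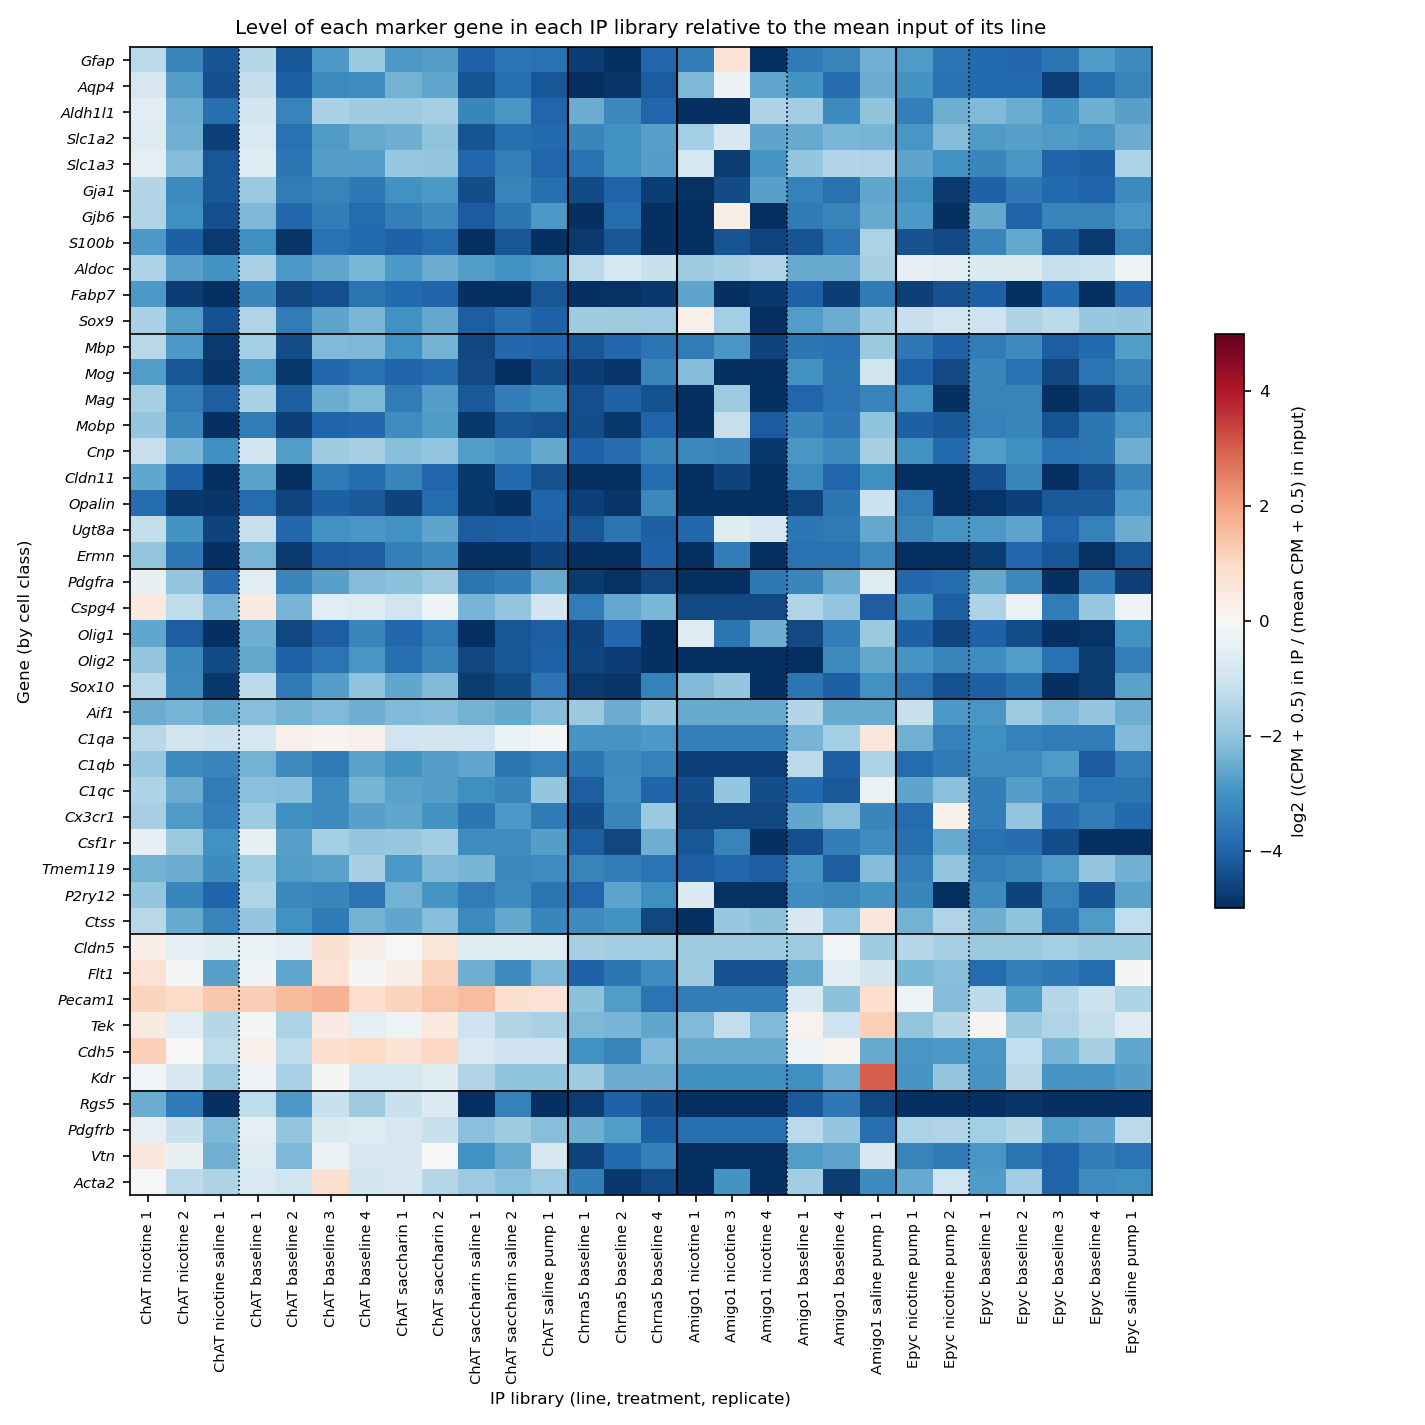
Heat map of log2 of CPM + 0.5 in each IP over mean input CPM + 0.5 of the same line, for the 44 members (rows, by cell class) in each nicotine and control IP (columns, by line, nicotine left of control). Of 952 glial cells 11 lie above 0, which are Gfap, Gjb6, Sox9, Cspg4, Cx3cr1 and Ctss in 1 or 2 IPs each and C1qa in 4, while the endothelial rows hold cells near or above 0 in the ChAT and Amigo1 control columns.

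**Figure D2:**
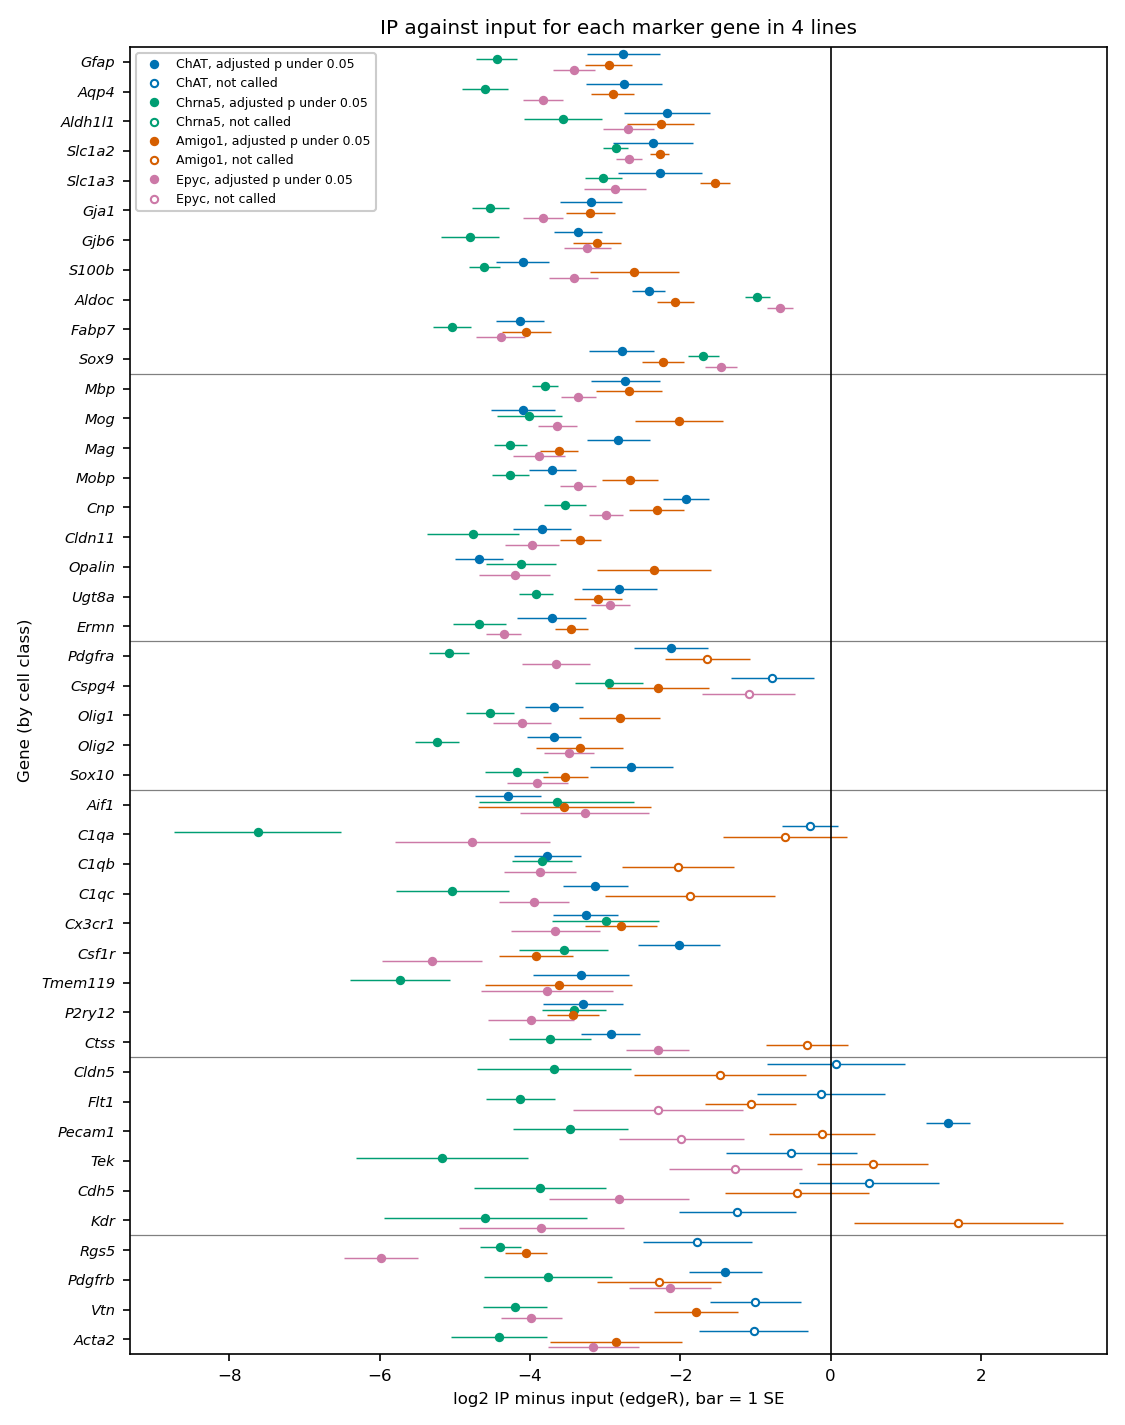
Fitted log2 difference of IP against input for each member in the 4 lines, without nicotine libraries; bars are 1 SE, filled points were called and open points were not. All Chrna5 points lie below 0, and the points above 0 are endothelial genes in the ChAT and Amigo1 lines.

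The astrocyte genes were lower in the IPs of every line, all 11 of 11 in each. With a term for the gene list, estimated from ChAT control IPs alone, Aldh1l1 (0.18) and Slc1a3 (0.35) turned in the Amigo1 line. Neither was called. As a summed level the 11 genes kept 16 ± 12.1% of the mean input in ChAT control IPs, 16 ± 2.36% in Chrna5 IPs, 18.2 ± 4.17% in Amigo1 control IPs and 22 ± 4.79% in Epyc control IPs (SD, n = 9, 3, 3 and 5). Abundant genes weigh most in this sum: taken as the median over members of log2 (CPM + 0.5), the share was 5.97% in Chrna5 IPs and 10.9% in Epyc IPs. Of 15 further astrocyte genes on another list, 14 were lower in the ChAT, Chrna5 and Epyc lines and 12 in the Amigo1 line. Fabp7, a fatty acid carrier of astrocytes and radial glia, fell the most by its median over the 4 lines. Fabp7 was at 2.7 at the lowest, 5.67 at the median and 12 CPM at the highest in ChAT IPs, against 149, 112, 104 and 112 CPM in ChAT inputs. In Chrna5 IPs Fabp7 was at 3.58, 6.1 and 6.68 CPM, against 154, 208, 202 and 240 CPM in Chrna5 inputs. Every ChAT and Chrna5 IP lay below every input of its line. Amigo1 IPs held 6.91, 4.19 and 10 CPM of Fabp7, against 155, 96, 116 and 122 CPM in Amigo1 inputs. Epyc IPs held 9.02, 4.21, 10.5, 2.84 and 10.2 CPM of Fabp7, against 141, 136, 152 and 217 CPM in Epyc inputs. The groups were far apart in the Amigo1 and Epyc lines too. For Fabp7 the log2 difference of IP against input was -4.13 ± 0.32 in the ChAT line, -5.04 ± 0.25 in the Chrna5 line, -4.05 ± 0.33 in the Amigo1 line and -4.39 ± 0.33 in the Epyc line, with a largest edgeR adjusted p of 2.77e-05.

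Aldoc, the brain form of the glycolytic enzyme aldolase and a marker of astrocytes, had the smallest difference of its class by the median over the lines. Aldoc was at 64.2 at the lowest, 75.6 at the median and 175 CPM at the highest in ChAT IPs, against 553, 504, 617 and 455 CPM in ChAT inputs. In Chrna5 IPs Aldoc was at 251, 353 and 295 CPM, against 605, 880, 519 and 579 CPM in Chrna5 inputs. ChAT IPs were all far below their inputs, while the Chrna5 IPs came closer to theirs without overlapping them. Amigo1 IPs held 126, 127 and 232 CPM of Aldoc, against 664, 707, 662 and 897 CPM in Amigo1 inputs. Epyc IPs held 377, 377, 283, 297 and 549 CPM of Aldoc, against 758, 705, 477 and 580 CPM in Epyc inputs. The Epyc saline pump IP stood above the lowest Epyc input, so the groups overlapped, and Amigo1 IPs did not overlap their inputs. For Aldoc the log2 difference of IP against input was -2.42 ± 0.22 in the ChAT line, -0.97 ± 0.17 in the Chrna5 line, -2.06 ± 0.24 in the Amigo1 line and -0.67 ± 0.18 in the Epyc line, with a largest edgeR adjusted p of 0.00719. Aldoc (GRCm38 chr11:78322968-78327781, plus strand) kept 46.4% of its mean input level in Chrna5 IPs and 59.8% in Epyc IPs, the highest share of any astrocyte member in either line.

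Sox9, a transcription factor that marks astrocyte nuclei, and Slc1a2, the main glutamate transporter of astrocytes, were picked out after their values were seen. Sox9 was at 2.06 at the lowest, 4.96 at the median and 15.2 CPM at the highest in ChAT IPs, against 43.8, 43.1, 53.1 and 36.6 CPM in ChAT inputs. In Chrna5 IPs Sox9 was at 13.3, 13.4 and 12.8 CPM, against 43.4, 57.6, 35.8 and 50.7 CPM in Chrna5 inputs. None of these IPs reached the lowest input of its line. Amigo1 IPs held 7.46, 9.35 and 15.5 CPM of Sox9, against 58.3, 54, 51.5 and 52.6 CPM in Amigo1 inputs. Epyc IPs held 24.7, 17.4, 20.1, 13.6 and 13 CPM of Sox9, against 52.1, 43.1, 54.6 and 55.8 CPM in Epyc inputs. The Epyc IPs were the closest to their inputs. For Sox9 the log2 difference was -2.78 ± 0.43 in the ChAT line, -1.70 ± 0.21 in the Chrna5 line, -2.23 ± 0.28 in the Amigo1 line and -1.46 ± 0.22 in the Epyc line, with a largest adjusted p of 0.000373. Slc1a2 was at 59.6 at the lowest, 166 at the median and 694 CPM at the highest in ChAT IPs, against 1160, 1071, 1209 and 1290 CPM in ChAT inputs. One ChAT baseline IP stood far above the other controls, and all lay below the inputs. Slc1a2 differed by -2.36 ± 0.53 in the ChAT line, -2.86 ± 0.17 in the Chrna5 line, -2.27 ± 0.12 in the Amigo1 line and -2.69 ± 0.17 in the Epyc line, with a largest adjusted p of 0.00219. The other 7 astrocyte members, which are Gfap, Aqp4, Aldh1l1, Slc1a3, Gja1, Gjb6 and S100b, were lower in all 4 lines.

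**Figure D3:**
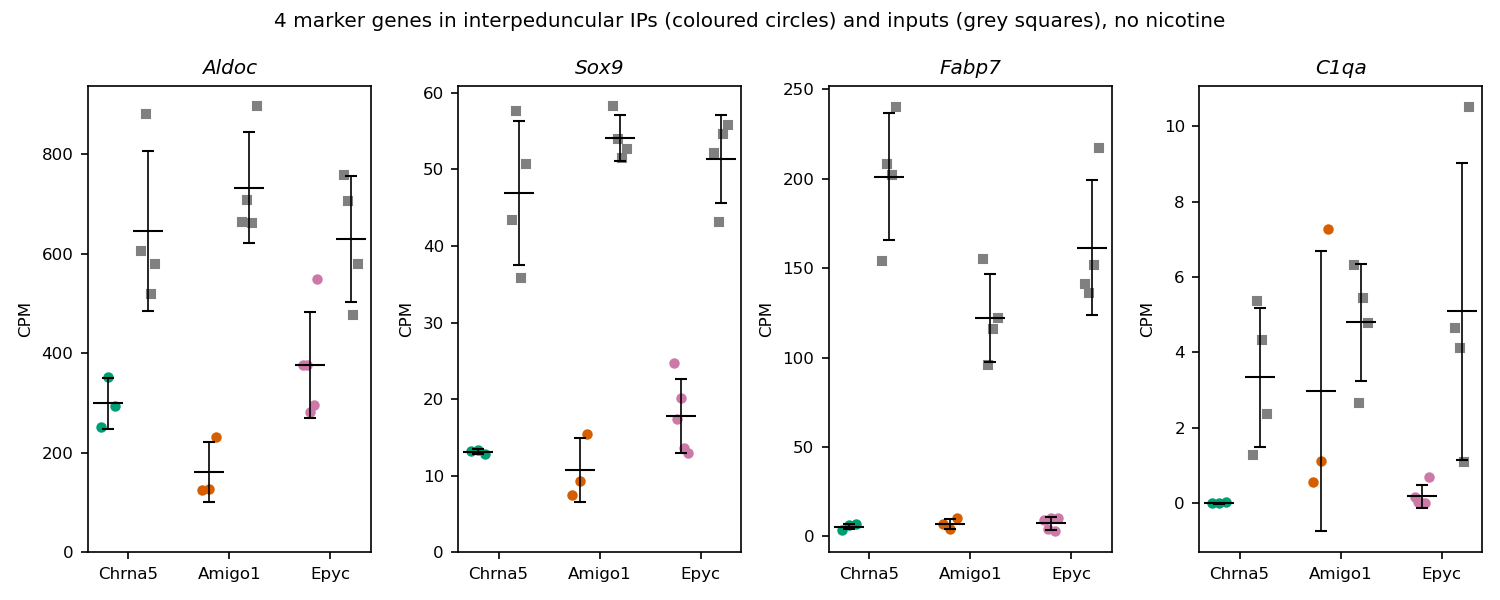
CPM of Aldoc, Sox9, Fabp7 and C1qa in each control IP and input of the 3 IPN lines, with mean ± SD. Aldoc and Sox9 IPs stand closest to their inputs in the Epyc line, while Fabp7 IPs are near 0 in all 3.

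All 9 oligodendrocyte genes were lower in the IPs of all 4 lines. The summed level kept 12.6 ± 7.12% of the mean input in ChAT control IPs, 5.72 ± 1.56% in Chrna5 IPs, 14.3 ± 9.58% in Amigo1 control IPs and 9.11 ± 3.1% in Epyc control IPs (SD, n = 9, 3, 3 and 5). Without the saline pump IP, at 25.4%, the Amigo1 mean was 8.8%, below the Epyc mean. Of 15 other oligodendrocyte genes, 14 were lower in the ChAT line, 15 in the Chrna5 line, 13 in the Amigo1 line and 13 in the Epyc line. Opalin, a membrane protein of myelinating oligodendrocytes, fell the most by its median over the lines. Opalin was at 0.314 at the lowest, 1.24 at the median and 1.74 CPM at the highest in ChAT IPs, against 36.9, 31.6, 33.7 and 23.1 CPM in ChAT inputs. In Chrna5 IPs Opalin was at 1.07, 0.845 and 3.75 CPM, against 31.1, 33.1, 52.2 and 39.4 CPM in Chrna5 inputs. Opalin was low in all of these IPs. Amigo1 IPs held 1.35, 3.12 and 20.5 CPM of Opalin, against 44.2, 44.7, 45.9 and 42 CPM in Amigo1 inputs. Epyc IPs held 0.81, 1.04, 1.64, 1.63 and 4.84 CPM of Opalin, against 54.5, 51, 30.4 and 17.6 CPM in Epyc inputs. The Amigo1 saline pump IP was the highest of all IPs, and even it lay below its inputs. For Opalin the log2 difference of IP against input was -4.68 ± 0.32 in the ChAT line, -4.12 ± 0.46 in the Chrna5 line, -2.35 ± 0.75 in the Amigo1 line and -4.20 ± 0.47 in the Epyc line, with a largest edgeR adjusted p of 0.0401. The Amigo1 call was lost when any library of the line but the saline pump IP was left out (-1.83 to -2.37), in DESeq2 (-2.28) and with the gene list term (-2.41). Cnp, an enzyme of the myelin membrane, fell the least of its class by its median. Cnp was at 40.3 at the lowest, 71 at the median and 159 CPM at the highest in ChAT IPs, against 343, 362, 329 and 218 CPM in ChAT inputs. In Chrna5 IPs Cnp was at 37.7, 43.9 and 65.5 CPM, against 430, 478, 816 and 777 CPM in Chrna5 inputs. Cnp IPs stayed below their inputs in both lines. Amigo1 IPs held 87.3, 71.9 and 212 CPM of Cnp, against 660, 797, 673 and 528 CPM in Amigo1 inputs. Epyc IPs held 97.7, 79.4, 49.7, 54.3 and 125 CPM of Cnp, against 647, 706, 827 and 519 CPM in Epyc inputs. The saline pump IPs were the highest Cnp values of these lines. For Cnp the log2 difference of IP against input was -1.93 ± 0.31 in the ChAT line, -3.54 ± 0.28 in the Chrna5 line, -2.31 ± 0.37 in the Amigo1 line and -2.98 ± 0.23 in the Epyc line, with a largest edgeR adjusted p of 0.00157. Cnp shares 4.23% of its exon bases with Dnajc7 on the other strand, and the labels state no strand, so that reads from this stretch cannot be assigned.

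Of the 5 precursor and lineage genes, 4 were lower in the ChAT, Amigo1 and Epyc lines and all 5 in the Chrna5 line. Their summed level kept 10.8 ± 7.91% of the mean input in ChAT control IPs, 3.95 ± 0.697% in Chrna5 IPs, 14 ± 10.7% in Amigo1 control IPs and 7.23 ± 3.86% in Epyc control IPs (SD, n = 9, 3, 3 and 5). Without the saline pump IP, at 26.1%, the Amigo1 mean was 7.88%. Among 6 other precursor genes, 4 were lower in the ChAT line and all 6 in each IPN line. Olig1, a transcription factor of the whole lineage, fell the most of its class by its median. Olig1 was at 2.99 at the lowest, 6.64 at the median and 22.3 CPM at the highest in ChAT IPs, against 130, 120, 123 and 121 CPM in ChAT inputs. In Chrna5 IPs Olig1 was at 5.78, 9.67 and 3.3 CPM, against 128, 198, 144 and 151 CPM in Chrna5 inputs. Olig1 was low in every one of these IPs. Amigo1 IPs held 6.83, 14.9 and 46 CPM of Olig1, against 151, 172, 161 and 188 CPM in Amigo1 inputs. Epyc IPs held 12, 9.2, 4.97, 6.46 and 24.9 CPM of Olig1, against 202, 208, 309 and 111 CPM in Epyc inputs. The saline pump IPs again held the highest values without reaching an input. For Olig1 the log2 difference of IP against input was -3.68 ± 0.39 in the ChAT line, -4.53 ± 0.31 in the Chrna5 line, -2.81 ± 0.54 in the Amigo1 line and -4.11 ± 0.39 in the Epyc line, with a largest edgeR adjusted p of 0.00422. Cspg4, the NG2 proteoglycan of precursors that pericytes also express, had the smallest difference of its class by the median over the lines. Cspg4 was at 0.452 at the lowest, 1.97 at the median and 6.12 CPM at the highest in ChAT IPs, against 4.4, 4.48, 3.95 and 4.23 CPM in ChAT inputs. In Chrna5 IPs Cspg4 was at 0.44, 1.31 and 1.68 CPM, against 11.1, 9.16, 9.71 and 10.2 CPM in Chrna5 inputs. ChAT IPs overlapped their inputs, Chrna5 IPs did not. Amigo1 IPs held 3.49, 2.34 and 0.145 CPM of Cspg4, against 8.69, 14.1, 10.4 and 10 CPM in Amigo1 inputs. Epyc IPs held 2.54, 6.64, 0.298, 1.92 and 7.51 CPM of Cspg4, against 10.7, 8.79, 10.6 and 3.76 CPM in Epyc inputs. Epyc IPs reached from near 0 to the level of the inputs. Cspg4 differed by -0.78 ± 0.55 in the ChAT line, -2.94 ± 0.45 in the Chrna5 line, -2.29 ± 0.68 in the Amigo1 line and -1.09 ± 0.62 in the Epyc line, and was lower in the Chrna5 line (adjusted p 0.00025) and the Amigo1 line (adjusted p 0.0297) but not called in the ChAT line (adjusted p 0.252) or the Epyc line (adjusted p 0.188). The Amigo1 call was lost without any one of the 4 inputs (-2.15 to -2.40) or baseline IP 4 (-2.39), and in paired pools with the replicate block (-2.56). With that block Cspg4 was called lower in the ChAT line, in 2 saccharin saline pools (-2.70), and in the Epyc line (-1.51). The same pools without the block gave these 2 calls too (-2.67 and -1.32), and no call in the Amigo1 line (-2.15). Pdgfra, the growth factor receptor that defines precursors, was lower in 3 lines and at -1.64 ± 0.56 in the Amigo1 line with an adjusted p of 0.0515.

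All 9 microglial genes were lower in the Chrna5 and Epyc lines, 8 in the ChAT line and 5 in the Amigo1 line. The summed level kept 13.8 ± 6.76% of the mean input in ChAT control IPs, 6.58 ± 2.3% in Chrna5 IPs, 26.2 ± 20.8% in Amigo1 control IPs and 8.23 ± 3.38% in Epyc control IPs (SD, n = 9, 3, 3 and 5). Without the saline pump IP, at 49.6%, the Amigo1 mean was 14.5%. Of 14 other microglial genes, 12 were lower in the ChAT and Chrna5 lines, 8 in the Amigo1 line and 10 of 13 tested in the Epyc line. The 3 chains of the complement protein C1q, which tags synapses and debris for removal, are encoded side by side on chromosome 4, with C1qb at chr4:136880129-136886187, C1qc at chr4:136889804-136893065 and C1qa at chr4:136895917-136898803, all on the minus strand (GRCm38). They are shown because these neighbouring genes kept 76.9% (C1qa), 6.59% (C1qb) and 10.5% (C1qc) of their mean input level in ChAT IPs, a difference between genes that was not tested. RefSeq promoter windows (GRCm38.p6, minus strand) were available for C1qb and C1qc. The stretch before both the RefSeq start and the gene span above is printed here, at chr4:136886201-136886450 and chr4:136893066-136893164. Capitals mark GAGGAA or its reverse complement TTCCTC, the core of a PU.1 site.
C1qb: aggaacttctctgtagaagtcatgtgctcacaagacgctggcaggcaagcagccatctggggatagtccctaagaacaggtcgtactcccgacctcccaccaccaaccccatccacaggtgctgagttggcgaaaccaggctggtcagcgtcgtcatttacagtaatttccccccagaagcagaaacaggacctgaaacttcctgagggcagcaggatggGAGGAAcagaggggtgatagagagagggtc
C1qc: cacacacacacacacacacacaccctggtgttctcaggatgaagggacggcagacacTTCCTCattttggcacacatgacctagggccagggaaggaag
Each of these windows, searched over all 300 bases and both strands, held 1 match, and 28.3% of 32851 windows of that length held at least 1.

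C1qa was not called in ChAT IPs and was lower in the Chrna5 and Epyc lines. C1qa was at 0.884 at the lowest, 1.71 at the median and 2.86 CPM at the highest in ChAT IPs, against 2.09, 1.69, 2.74 and 2.64 CPM in ChAT inputs. In Chrna5 IPs C1qa was at 0, 0 and 0.0216 CPM, against 1.28, 5.35, 4.34 and 2.38 CPM in Chrna5 inputs. ChAT IPs spanned the range of their inputs, while all 3 Chrna5 IPs together held 1 count. Amigo1 IPs held 0.556, 1.12 and 7.26 CPM of C1qa, against 6.31, 2.67, 5.44 and 4.78 CPM in Amigo1 inputs. Epyc IPs held 0.174, 0.0434, 0, 0 and 0.7 CPM of C1qa, against 4.64, 4.12, 1.09 and 10.5 CPM in Epyc inputs. The Amigo1 saline pump IP exceeded all Amigo1 inputs, and no Epyc IP reached an input. C1qa was not called in the ChAT line (-0.27 ± 0.38, adjusted p 0.57) or the Amigo1 line (-0.61 ± 0.82, adjusted p 0.613) and was lower in the Epyc line (-4.77 ± 1.03, adjusted p 0.0017) and the Chrna5 line (adjusted p 0.00016). The 1 count in Chrna5 IPs, against 415 in the inputs, is a depth-scaled share of 0.358% with an exact 95% interval of 0.00904 to 2% that covers counting error only. Without the saline pump IP, C1qa was lower in the Amigo1 line at -2.38. C1qb was lower in ChAT, Chrna5 and Epyc IPs. C1qb was at 0.0898 at the lowest, 0.428 at the median and 0.934 CPM at the highest in ChAT IPs, against 4.73, 7.2, 7.26 and 7.93 CPM in ChAT inputs. In Chrna5 IPs C1qb was at 0.629, 1.03 and 0.819 CPM, against 9.86, 19, 13.6 and 10.4 CPM in Chrna5 inputs. No IP of these lines reached its inputs. Amigo1 IPs held 4.53, 0.243 and 3.78 CPM of C1qb, against 8.49, 11.5, 13.6 and 15.1 CPM in Amigo1 inputs. Epyc IPs held 0.81, 0.825, 1.09, 0.142 and 0.573 CPM of C1qb, against 12.4, 10.1, 10 and 11 CPM in Epyc inputs. Amigo1 and Epyc IPs stayed below their inputs, with the Amigo1 IPs scattered. C1qb differed by -3.77 ± 0.44 in the ChAT line, -3.84 ± 0.39 in the Chrna5 line, -2.03 ± 0.75 in the Amigo1 line and -3.87 ± 0.48 in the Epyc line, and all but the Amigo1 value (adjusted p 0.0665) were called, the largest adjusted p among them being 1.02e-05. The Amigo1 value was called without baseline IP 4 (-1.44) or the saline pump IP (-2.37). C1qc was also lower in the ChAT line (-3.13 ± 0.43, adjusted p 2.64e-05).

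Ctss, a lysosomal protease of microglia, had the smallest difference of its class by the median over the lines. Ctss was at 0.486 at the lowest, 1.37 at the median and 2.48 CPM at the highest in ChAT IPs, against 7.08, 7.2, 10.2 and 19.4 CPM in ChAT inputs. In Chrna5 IPs Ctss was at 1.89, 2.11 and 0.388 CPM, against 17.3, 34.3, 10.9 and 19 CPM in Chrna5 inputs. All of these IPs lay below their inputs. Amigo1 IPs held 9.85, 3.65 and 25.7 CPM of Ctss, against 12.8, 18.7, 15.9 and 22.2 CPM in Amigo1 inputs. Epyc IPs held 3.18, 4.51, 1.09, 2.27 and 7.89 CPM of Ctss, against 19, 22.4, 16.2 and 20.2 CPM in Epyc inputs. The Amigo1 saline pump IP was above every Amigo1 input, and Epyc IPs did not overlap theirs. Ctss differed by -2.93 ± 0.40 in the ChAT line, -3.74 ± 0.55 in the Chrna5 line, -0.31 ± 0.55 in the Amigo1 line and -2.30 ± 0.42 in the Epyc line, and was called in all but the Amigo1 line (adjusted p 0.704), with 0.000442 the largest adjusted p of the others. Without the saline pump IP, Ctss was lower in the Amigo1 line at -1.31. The remaining microglial members Aif1, Cx3cr1, Csf1r, Tmem119 and P2ry12 were lower in all 4 lines.

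Endothelial genes were lower in Chrna5 IPs and mostly not called in the other lines. The Chrna5 line had all 6 lower, the Epyc line 2 of 5 tested, and the ChAT and Amigo1 lines none. Their summed level kept 112 ± 67.1% of the mean input in ChAT control IPs, 5.77 ± 1.58% in Chrna5 IPs, 101 ± 102% in Amigo1 control IPs and 17.2 ± 14.1% in Epyc control IPs (SD, n = 9, 3, 3 and 5). Without its saline pump IP, the mean was 42.4% in the Amigo1 line, where that IP was at 219%, and 11% in the Epyc line, where it was at 42.1%. As a median over members with 0.5 CPM added, the share was 18.7% in Chrna5 IPs, 65.7% in Amigo1 IPs and 26.4% in Epyc IPs. Levels were low throughout: the 6 genes summed to 8.68 CPM at the least in a ChAT input, and single libraries were at 0. Of 12 other endothelial genes, 1 was higher and 1 lower in the ChAT line, 9 were lower in the Chrna5 line, 3 in the Amigo1 line and 5 of 11 tested in the Epyc line. The higher one was Esam, an adhesion molecule of endothelial junctions, at 8.03 CPM on average in ChAT IPs and 1.71 CPM in inputs.

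Pecam1, the adhesion molecule CD31 of endothelial junctions (GRCm38 chr11:106654217-106750628, minus strand), was the only member called higher in any line. Pecam1 was at 3.34 at the lowest, 4.99 at the median and 7.22 CPM at the highest in ChAT IPs, against 2.64, 1.39, 2.06 and 1.16 CPM in ChAT inputs. In Chrna5 IPs Pecam1 was at 1.19, 0.516 and 0.0431 CPM, against 8.2, 6.34, 6.5 and 4.84 CPM in Chrna5 inputs. Every ChAT IP exceeded every ChAT input, and every Chrna5 IP lay below its inputs. Amigo1 IPs held 2.7, 0.828 and 9.29 CPM of Pecam1, against 4.96, 4.06, 4.62 and 6.11 CPM in Amigo1 inputs. Epyc IPs held 0.925, 0, 0.796, 1.14 and 0.7 CPM of Pecam1, against 3.86, 3.8, 1.93 and 2.35 CPM in Epyc inputs. The Amigo1 saline pump IP was above the Amigo1 inputs, and Epyc IPs lay below theirs. Pecam1 differed by 1.57 ± 0.29 in the ChAT line, -3.46 ± 0.77 in the Chrna5 line, -0.12 ± 0.71 in the Amigo1 line and -1.99 ± 0.83 in the Epyc line, with an adjusted p of 0.000423 in the ChAT line, 0.00359 in the Chrna5 line, 0.919 in the Amigo1 line and 0.0736 in the Epyc line. The ChAT call did not hold with a term for the gene list (1.42) or in the 2 paired pools without a block (1.69), and Pecam1 was called lower in the Amigo1 line without the saline pump IP (-1.44).

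Flt1, a receptor for the growth factor VEGF, spread widely among ChAT IPs. Flt1 was at 0.18 at the lowest, 4.79 at the median and 12.9 CPM at the highest in ChAT IPs, against 3.64, 3.89, 5.46 and 8.83 CPM in ChAT inputs. In Chrna5 IPs Flt1 was at 0.252, 0.516 and 0.927 CPM, against 10.8, 13.7, 9.38 and 13.3 CPM in Chrna5 inputs. ChAT IPs ran from far below to above their inputs, and Chrna5 IPs were all low. Amigo1 IPs held 1.27, 6.43 and 4.94 CPM of Flt1, against 11.2, 6.38, 5.13 and 15.9 CPM in Amigo1 inputs. Epyc IPs held 0, 0.174, 0.0995, 0 and 6.37 CPM of Flt1, against 9.08, 4.12, 5.52 and 7.85 CPM in Epyc inputs. In the Epyc line the saline pump IP alone lay within the range of the inputs. Flt1 differed by -0.13 ± 0.86 in the ChAT line, -4.13 ± 0.46 in the Chrna5 line, -1.06 ± 0.61 in the Amigo1 line and -2.29 ± 1.13 in the Epyc line, and was called lower in the Chrna5 line (adjusted p 1.54e-05). Without the Epyc saline pump IP, Flt1 was lower in the Epyc line at -6.27. In paired pools with the replicate block, Flt1 was called lower in the ChAT line, in 2 saccharin saline pools (-4.00), and in the Epyc line (-6.31). The same pools without the block gave both calls too (-3.95 and -6.27). Tek, the angiopoietin receptor, was lower in Chrna5 IPs. Tek was at 0 at the lowest, 0.621 at the median and 1.69 CPM at the highest in ChAT IPs, against 1.02, 0.981, 0.612 and 1.59 CPM in ChAT inputs. In Chrna5 IPs Tek was at 0.126, 0.0939 and 0 CPM, against 4.5, 3.12, 1.02 and 1.33 CPM in Chrna5 inputs. ChAT IPs overlapped their inputs, from 0 upwards. Amigo1 IPs held 2.14, 0.633 and 4.79 CPM of Tek, against 2.51, 1.16, 1.29 and 2.3 CPM in Amigo1 inputs. Epyc IPs held 1.56, 0.0434, 0.199, 0.355 and 0.764 CPM of Tek, against 1.69, 1.94, 0.885 and 1.35 CPM in Epyc inputs. Amigo1 and Epyc IPs overlapped their inputs. Tek differed by -0.52 ± 0.87 in the ChAT line, -5.17 ± 1.14 in the Chrna5 line, 0.56 ± 0.74 in the Amigo1 line and -1.27 ± 0.89 in the Epyc line, with an adjusted p of 0.0035 in the Chrna5 line. Cdh5, the cadherin of endothelial junctions, was lower in the Chrna5 and Epyc lines. Cdh5 was at 0 at the lowest, 0.916 at the median and 1.95 CPM at the highest in ChAT IPs, against 0.606, 0.575, 0.431 and 1.16 CPM in ChAT inputs. In Chrna5 IPs Cdh5 was at 0.126, 0 and 0.604 CPM, against 4.65, 4.95, 2.75 and 5.82 CPM in Chrna5 inputs. Several ChAT IPs exceeded all ChAT inputs while others were near 0. Amigo1 IPs held 1.98, 2.73 and 0 CPM of Cdh5, against 3.9, 2.71, 0.9 and 1.93 CPM in Amigo1 inputs. Epyc IPs held 0, 1.13, 0.249, 0.71 and 0.127 CPM of Cdh5, against 1.88, 3.09, 1.25 and 6.96 CPM in Epyc inputs. Amigo1 IPs ranged from 0 to the level of the inputs, and Epyc IPs lay below theirs. Cdh5 differed by 0.51 ± 0.94 in the ChAT line, -3.87 ± 0.88 in the Chrna5 line, -0.44 ± 0.96 in the Amigo1 line and -2.82 ± 0.93 in the Epyc line, and was lower in the Chrna5 line (adjusted p 0.00419) and the Epyc line (adjusted p 0.0259). The Epyc call was lost without baseline input 2 (-2.85), baseline IP 3 (-2.67) or the saline pump input (-2.10), with baseline libraries only (-1.86) and in paired pools with the replicate block (-2.08), and the value turned to 0.18 with a term for the gene list.

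Kdr, the main VEGF receptor, had its highest value in 1 Amigo1 library. Kdr was at 0 at the lowest, 0.596 at the median and 1.61 CPM at the highest in ChAT IPs, against 1.84, 1.52, 1.75 and 1.06 CPM in ChAT inputs. In Chrna5 IPs Kdr was at 0.314, 0 and 0 CPM, against 4.08, 2.82, 1.71 and 0.418 CPM in Chrna5 inputs. Most ChAT IPs were under their inputs with some overlap, and no Chrna5 IP reached an input. Amigo1 IPs held 0, 0.292 and 32.8 CPM of Kdr, against 3.36, 4.14, 4.54 and 2.62 CPM in Amigo1 inputs. Epyc IPs held 0, 0.955, 0, 0 and 0.0637 CPM of Kdr, against 3.99, 2.53, 4.11 and 2.77 CPM in Epyc inputs. The Amigo1 saline pump IP, the library with the fewest counts, stood far above all other libraries for Kdr, at 32.8 CPM. Kdr differed by -1.24 ± 0.78 in the ChAT line, -4.59 ± 1.35 in the Chrna5 line, 1.70 ± 1.39 in the Amigo1 line and -3.85 ± 1.10 in the Epyc line, and was lower in the Chrna5 line (adjusted p 0.0179) and the Epyc line (adjusted p 0.0123). Without the saline pump IP the Amigo1 value turned to -4.31, and the Chrna5 call was lost without baseline input 1 (-4.10) or baseline IP 2 (-3.98). Cldn5, the tight junction protein of the blood-brain barrier, was near the floor in most IPs. Cldn5 was at 0 at the lowest, 0.123 at the median and 0.824 CPM at the highest in ChAT IPs, against 0.313, 0.321, 0.317 and 0.211 CPM in ChAT inputs. In Chrna5 IPs Cldn5 was at 0.126, 0.0939 and 0.0862 CPM, against 2.84, 1.48, 1.19 and 0.319 CPM in Chrna5 inputs. ChAT inputs were as low as their IPs. Amigo1 IPs held 0, 1.07 and 0 CPM of Cldn5, against 0.882, 1.47, 0.822 and 1.79 CPM in Amigo1 inputs. Epyc IPs held 0, 0, 0.0497, 0 and 0 CPM of Cldn5, against 2.69, 0.396, 1.82 and 0.296 CPM in Epyc inputs. Amigo1 had counts in 1 of 3 control IPs, and Epyc in 1 of 5. Cldn5 differed by 0.07 ± 0.92 in the ChAT line, -3.68 ± 1.02 in the Chrna5 line and -1.47 ± 1.15 in the Amigo1 line, and was lower in the Chrna5 line (adjusted p 0.0136), a call lost in paired pools with the replicate block (-3.24). Without baseline IP 4, Cldn5 was called lower in the Amigo1 line. In Epyc IPs 1 count was found in all, against 142 in the inputs, a depth-scaled share of 0.957% with an exact 95% interval of 0.0241 to 5.42% for counting error only.

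**Figure D4:**
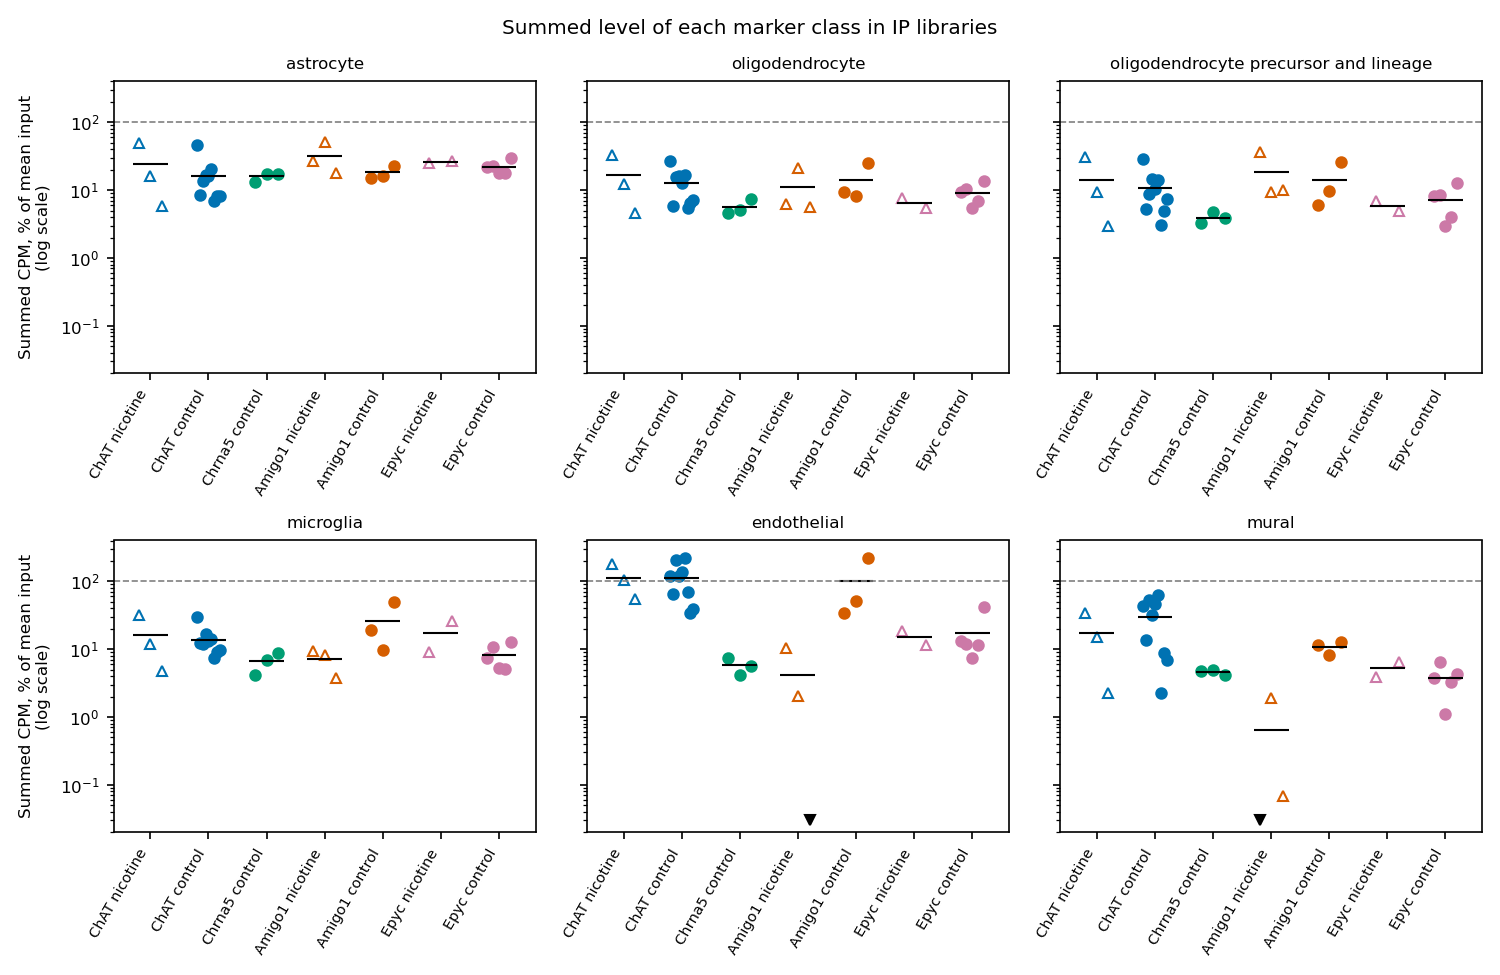
Summed CPM of each cell class in every IP as a percentage of the mean input of its line, on a log axis. Circles are control IPs, triangles nicotine IPs, bars the means and the dashed line 100%. Endothelial sums spread around 100% in the ChAT line and lie low in the Chrna5 line, and black triangles at the bottom mark sums of 0 in Amigo1 nicotine IPs.

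The 4 mural genes were all lower in the Chrna5 and Epyc lines, 3 of 4 in the Amigo1 line and 1 of 4 in the ChAT line. Their summed level kept 29.9 ± 22.5% of the mean input in ChAT control IPs, 4.55 ± 0.372% in Chrna5 IPs, 10.9 ± 2.29% in Amigo1 control IPs and 3.81 ± 1.95% in Epyc control IPs (SD, n = 9, 3, 3 and 5). As a median over members with 0.5 CPM added, the share in Epyc IPs was 11.1%. Of 9 other mural genes, 1 was higher and 4 lower in the ChAT line, 5 of 8 tested were lower in the Chrna5 line, 1 was higher and 2 lower in the Amigo1 line, and 5 of 8 were lower in the Epyc line. Rgs5, a regulator of G protein signalling that marks pericytes, had the largest difference of its class by the median over the lines. Rgs5 was at 0.629 at the lowest, 12.7 at the median and 27.6 CPM at the highest in ChAT IPs, against 41.6, 37.2, 34.7 and 66 CPM in ChAT inputs. In Chrna5 IPs Rgs5 was at 3.21, 5.49 and 4.01 CPM, against 75.3, 81.8, 103 and 131 CPM in Chrna5 inputs. ChAT IPs ran over a wide range below their inputs, and Chrna5 IPs were uniformly low. Amigo1 IPs held 3.73, 5.89 and 2.76 CPM of Rgs5, against 85.2, 69.5, 71.8 and 78.9 CPM in Amigo1 inputs. Epyc IPs held 0.578, 2.86, 0.249, 1.92 and 1.78 CPM of Rgs5, against 90.3, 88.9, 56.1 and 157 CPM in Epyc inputs. These IPs were all far below their inputs. Rgs5 differed by -1.77 ± 0.73 in the ChAT line, -4.40 ± 0.27 in the Chrna5 line, -4.06 ± 0.28 in the Amigo1 line and -5.98 ± 0.49 in the Epyc line, and was called in the 3 IPN lines (largest adjusted p 1.09e-05) but not in the ChAT line (adjusted p 0.0549). The ChAT value was called with library size alone in place of TMM scaling (-1.87), and without saccharin saline IP 1 (-1.61), saccharin IP 2 (-1.99) or the saline pump IP (-1.62). It was also called with baseline libraries only (-1.30). The 2 paired pools, both saccharin saline, gave the call with the replicate block (-4.74) and without it (-4.38). With a term for the gene list, estimated from ChAT control IPs alone, the fitted Rgs5 value turned to 0.48 in the Amigo1 line. It was -1.42 and not called in the Epyc line. Pdgfrb, the growth factor receptor of pericytes, had the smallest difference of its class by the median. Pdgfrb was at 0.282 at the lowest, 1.06 at the median and 1.94 CPM at the highest in ChAT IPs, against 3.32, 3.03, 2.58 and 2.64 CPM in ChAT inputs. In Chrna5 IPs Pdgfrb was at 1.07, 0.704 and 0 CPM, against 7.68, 8.46, 6.96 and 8.67 CPM in Chrna5 inputs. ChAT and Chrna5 IPs lay below their inputs. Amigo1 IPs held 2.22, 1.31 and 0 CPM of Pdgfrb, against 6.75, 5.76, 8.45 and 4.64 CPM in Amigo1 inputs. Epyc IPs held 1.68, 2.08, 0.497, 0.639 and 2.23 CPM of Pdgfrb, against 5.25, 5.22, 4.79 and 10.7 CPM in Epyc inputs. The groups did not overlap in either line. Pdgfrb differed by -1.40 ± 0.48 in the ChAT line, -3.76 ± 0.85 in the Chrna5 line, -2.29 ± 0.82 in the Amigo1 line and -2.13 ± 0.55 in the Epyc line, and was called in all but the Amigo1 line (adjusted p 0.0615), the largest adjusted p of the others being 0.0241. The ChAT call of Pdgfrb was lost without either baseline input (-1.30 and -1.39), with a gene list term (-1.42) and with baseline libraries only (-1.02), and the Amigo1 value was called without baseline IP 1 (-2.94) or the saline pump IP (-1.80). Vtn and Acta2, a matrix protein of pericytes and the actin of smooth muscle, were called lower in each IPN line and not in the ChAT line (adjusted p 0.182 and 0.25).

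Whether the lines differed in how much they lost was tested on the difference itself, in one edgeR fit of the 36 libraries without nicotine. Between the ChAT and Chrna5 lines, which also differ in tissue, the difference of IP against input was higher in the ChAT line for 9 members and lower for 1, against 10.7% and 9.2% of all genes. Those with a higher difference in the ChAT line were Pecam1, itself above its inputs there, at 5.07 ± 0.96 (adjusted p 0.000127), Tek at 4.67 ± 1.57 (adjusted p 0.03) and Cdh5 at 4.46 ± 1.56 (adjusted p 0.038) among endothelial genes. Vtn at 3.28 ± 0.87 (adjusted p 0.00558) and Acta2 at 3.42 ± 1.20 (adjusted p 0.0421) were the mural ones. Pdgfra differed by 3.02 ± 0.86 (adjusted p 0.011), Cnp by 1.66 ± 0.53 (adjusted p 0.0233) and the gap junction gene Gjb6 by 1.47 ± 0.53 (adjusted p 0.0442). C1qa was also called (adjusted p 0.000202). Aldoc was the member with a lower difference in the ChAT line, at -1.41 ± 0.34 (adjusted p 0.00201). Of the 36 libraries left out in turn, 14 each ended the call of Gjb6 (1.16 to 1.53), 11 that of Acta2 (2.65 to 3.52), 9 that of Cdh5 (3.92 to 4.45), 4 that of Tek (3.84 to 5.06) and 4 that of Cnp (1.49 to 1.54). Single libraries moved this count: it was 16 without saccharin saline IP 1 of the ChAT line, and 6 without baseline input 1 or baseline IP 2 of the Chrna5 line. In paired pools with the replicate block, 5 members were called, 2 higher and 3 lower in the ChAT line. The only ChAT pools in this fit were the saccharin saline ones, so block and choice of libraries cannot be told apart. Pecam1, C1qa and Aldoc kept their calls, Sox9 (-2.31) and Slc1a2 (-1.14) were added, and those of Tek (2.83), Cdh5 (2.72), Vtn (-0.05), Acta2 (0.53), Pdgfra (1.37), Cnp (0.82) and Gjb6 (0.81) were lost.

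Between the Chrna5 and Amigo1 lines, 5 members had a lower difference in the Chrna5 line and none a higher one, against 2.53% and 1.89% of all genes. These were Tek at -5.71 ± 1.68 (adjusted p 0.0427), Pdgfra at -3.44 ± 0.93 (adjusted p 0.0301), Ctss at -3.40 ± 0.84 (adjusted p 0.0162) and Pecam1 at -3.32 ± 1.00 (adjusted p 0.0475), with C1qa at an adjusted p of 0.00649. Without the Amigo1 saline pump IP, the count was 0 lower and 1 higher. It was 9 without either Amigo1 baseline IP, 2 without the Amigo1 saline pump input, 1 without Chrna5 baseline IP 4, and 3 without any of the 3 Amigo1 baseline inputs, Chrna5 baseline input 1, Chrna5 baseline IP 1 or 2, or ChAT baseline input 1 or 2. Leaving out single libraries ended the call of Pecam1 in 27 of 36 fits (-1.99 to -3.43), of Tek in 12 (-4.80 to -6.36), of Pdgfra in 5 (-2.27 to -3.61), of Ctss in 2 (-2.39 and -2.86) and of C1qa in 1 (-5.24). With the replicate block in paired pools, the calls of C1qa (-5.72), Tek (-5.50) and Pecam1 (-3.13) were lost and those of Aqp4 (-1.49), Slc1a3 (-1.45), Ermn (-1.31) and Aldoc (1.12) added. Between the Amigo1 and Epyc lines, Aldoc had a lower difference in the Amigo1 line, at -1.39 ± 0.36 (adjusted p 0.0174), and C1qa a higher one, at 4.18 ± 1.11 (adjusted p 0.0207), against 2.05% and 2.96% of all genes. The Aldoc call was lost without Amigo1 baseline IP 1 (-1.24), and that of C1qa without the Amigo1 saline pump IP (2.40) or the Epyc saline pump input (3.47). The count was 1 without the Amigo1 saline pump IP or saline pump input 2 of the Epyc line, and 5 without baseline IP 4 of the Amigo1 line. With the replicate block in paired pools, the call of C1qa was lost (3.87) and those of Slc1a3 (1.80) and Flt1 (4.93) were added. Between the Chrna5 and Epyc lines no member was called in the edgeR fit, against 0.85% of all genes lower and 1.56% higher, and 3 members had an unadjusted p under 0.05. Without Chrna5 baseline IP 2, 1 member was called, and DESeq2 called 0.

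The IPs of the Amigo1 and Epyc lines, which share tissue and gene list, were also compared directly. Aldoc was lower in Amigo1 IPs by -1.23 ± 0.25 (adjusted p 0.00728), and no other member of the 41 tested was called, against 4.09% of all genes lower and 3.96% higher. Its values were 126, 127 and 232 CPM in Amigo1 IPs, against 377, 377, 283, 297 and 549 CPM in Epyc IPs, with no overlap. Without the Epyc saline pump IP, 3 members were higher and 1 lower. Without Amigo1 baseline IP 1 or 4 the counts were 2 and 5. DESeq2 called 7 members and 1841 of all genes.

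Levels of glial genes varied widely between ChAT IPs. The first baseline and the first nicotine IP were the top 2 of the 12 ChAT IPs for 29 of the 44 members, including all 11 astrocyte genes, 7 of 9 oligodendrocyte and all 5 precursor genes, but none of the endothelial genes. Astrocyte sums in ChAT IPs ran from 5.85 to 50.3% of the mean input. The first baseline IP summed to 1011 CPM of astrocyte genes and the next control to 451 CPM. Without that IP, 33 members were lower and 1 higher in the ChAT line, as with it. Vascular sums followed another order: the lowest endothelial sum was 34.4% and the highest 218%.

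**Figure D5:**
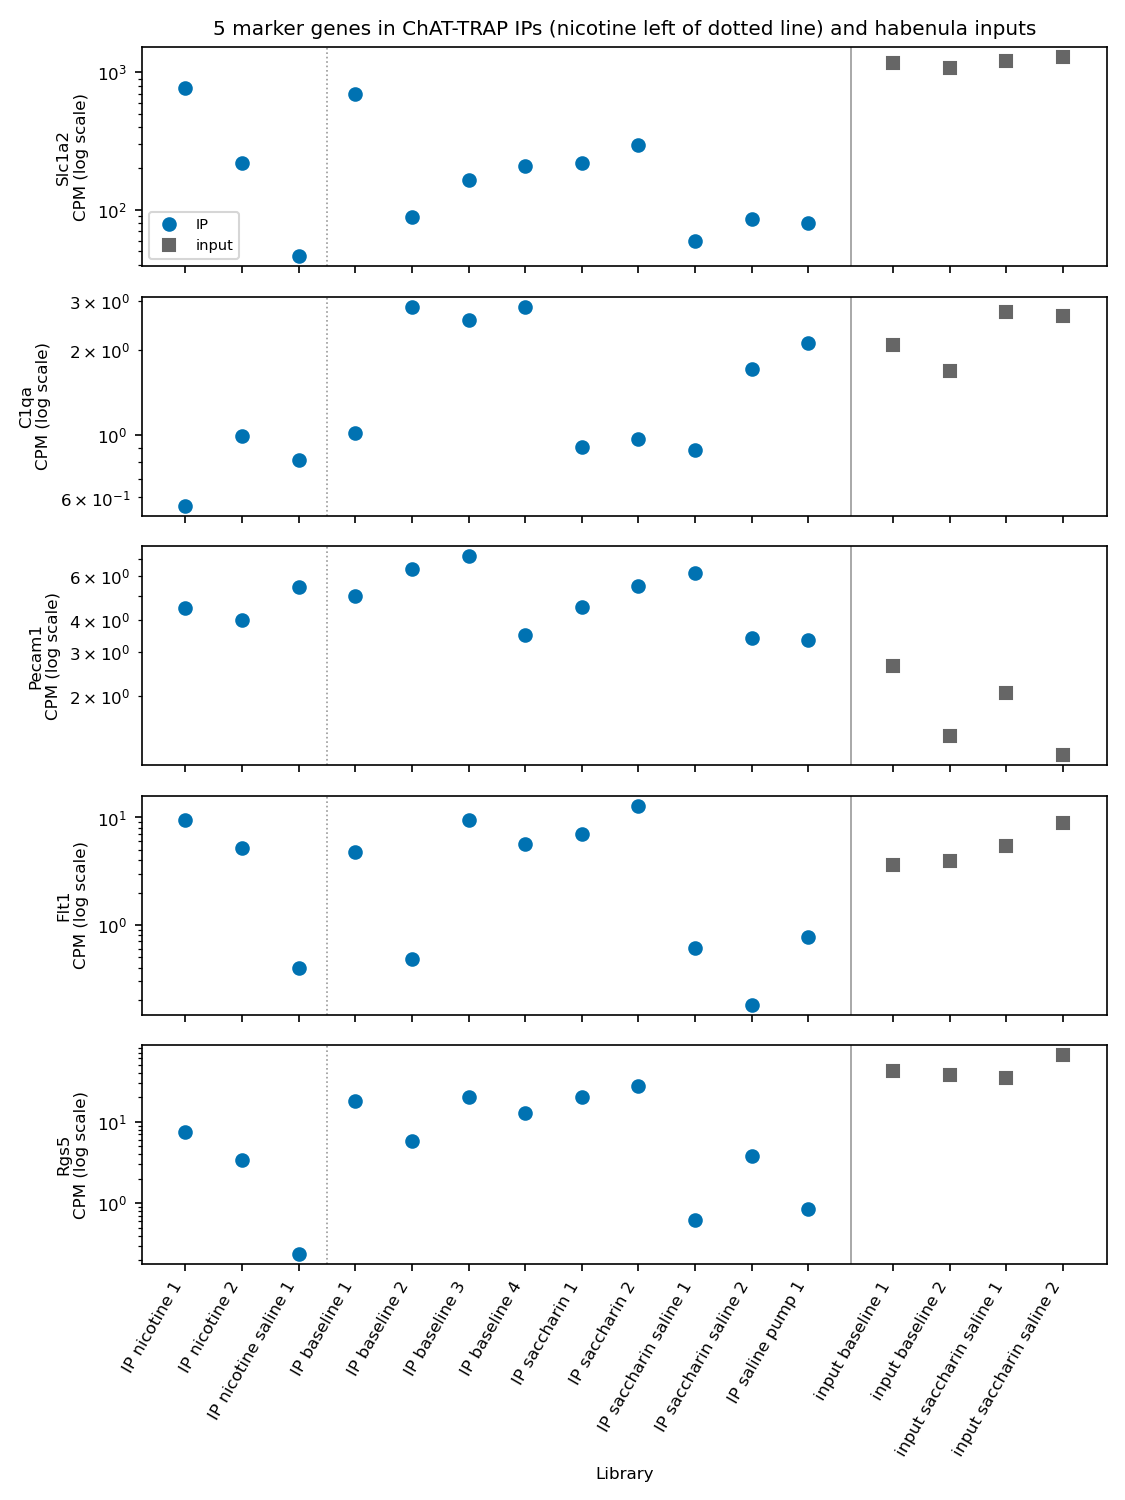
CPM of Slc1a2, C1qa, Pecam1, Flt1 and Rgs5 in each ChAT IP (left) and input (right), on log axes. Nicotine IPs stand left of the dotted line. Pecam1 IPs all lie above the inputs, Slc1a2 is high in 2 IPs, and Flt1 and Rgs5 are low in the IPs described with a saline injection or pump, Flt1 also in baseline IP 2 and Rgs5 also in nicotine IP 2.

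Nicotine groups were compared with control IPs of the same line to ask whether the share of glial and vascular RNA differed. No member was called in any of the 3 lines in edgeR. In the Amigo1 line 34 members could be tested, against 0% of all genes called higher and 0% called lower in edgeR. There 10 members and 1794 genes had an unadjusted p under 0.05. DESeq2 called 9 members lower, and 1652 of all genes in either direction. Mice of this nicotine group had drunk saccharin and the controls had not, so that nicotine and saccharin cannot be told apart. The library numbers of the Amigo1 nicotine IPs were also all far above those of the controls, so nicotine and library number cannot be told apart either. The astrocyte sum was 32 ± 16.9% of the mean input in Amigo1 nicotine IPs and 18.2 ± 4.17% in control IPs (SD, n = 3 each), and the nicotine mean was 55.2% with TMM scaling over all 44 libraries. Slc1a2 was at 479, 888 and 251 CPM in Amigo1 nicotine IPs, against 273, 316 and 309 CPM in control IPs. On this scale its 2 highest values were those of nicotine IPs, and the lowest one lay below the controls. Divided by the TMM factors of the test, Slc1a2 was at 620, 1206 and 303 CPM in nicotine IPs, against 207, 247 and 246 CPM in control IPs, with no overlap. The endothelial sum was 4.14 ± 5.5% in nicotine IPs and 101 ± 102% in control IPs, and the mural sum 0.65 ± 1.07% and 10.9 ± 2.29% (SD, n = 3 each). The endothelial control mean was 42.4% without the saline pump IP and the nicotine mean 1.02% without nicotine IP 1, while the mural nicotine mean was 0.0345% without nicotine IP 3. As a median over members with 0.5 CPM added, the endothelial share was 16.1% in nicotine IPs and 65.7% in control IPs. In all 3 Amigo1 nicotine IPs 12 members were at 0: Cspg4, Aif1, C1qa, C1qb, Cx3cr1, Cldn5, Pecam1, Cdh5, Kdr, Rgs5, Pdgfrb and Vtn. Against 187 counts in the control IPs, the 0 of Rgs5 allows at most 0.945% of the control level, and against 115 counts the 0 of Pecam1 allows at most 1.54%, both from a floor of 3 counts over the group and for counting error only. These 3 IPs also held fewer symbols with at least 5 counts, 9659 to 10168 against 12264 to 14049 in the control IPs, and 16 to 22 members at 0 against 2 to 4. Chrna5 was at 21.2 to 111 CPM in them, against 142 to 157 CPM in control IPs, and Amigo1 at 43.1 to 101 CPM, against 114 to 178 CPM. The part of this lower detection in the vascular values was not tested.

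In the Epyc line no member of 41 tested was called between nicotine pump and control IPs, against 0% of all genes higher and 0.00724% lower, and 4 members and 1330 genes had an unadjusted p under 0.05. DESeq2 called 0 members there, and without nicotine pump IP 1 edgeR called 1. The astrocyte sum was 25.8 ± 1.28% of the mean input in nicotine IPs and 22 ± 4.79% in control IPs, and the microglial sum 17.4 ± 11.6% and 8.23 ± 3.38% (SD, n = 2 and 5). That microglial mean rested on nicotine pump IP 2, at 25.6% and with 12.4 CPM of Cx3cr1, without which it was 9.22%, and the median over members gave 13.9% in nicotine IPs and 11.4% in control IPs. In the ChAT line 2 nicotine IPs were set against 2 saccharin IPs, without injection, and no member of 43 was called in edgeR or DESeq2, against 0% of all genes higher and 0% lower. Here 1 member, Rgs5, and 1095 genes had an unadjusted p under 0.05. Rgs5 was at 7.56 and 3.37 CPM in these nicotine IPs, against 20.2 and 27.6 CPM in saccharin IPs, with no overlap (log2 -2.14 ± 0.85, adjusted p 0.699). Rgs5 was called there without saccharin saline IP 1 or 2 (-2.14 each). Gene list and nicotine coincide in these groups and cannot be told apart. Within the ChAT IPs, libraries on the second list were set against those on the first with nicotine as a term, and 0 members were called in edgeR, against 2.67% of all genes higher and 3.16% lower, with 2 of 43 members and 3093 of 15010 genes at an unadjusted p under 0.05 and 1 member called by DESeq2. Without ChAT nicotine saline IP 1, edgeR called 1. The median log2 difference of the members there was -1.20, against -0.02 for all genes, and the median SE of a member was 0.916. All 3 nicotine IPs are on the second list, so the list value rests on control IPs. On the second list these were saccharin saline IP 1 and the saline pump IP. The first held saccharin IPs 1 and 2 and saccharin saline IP 2. Their astrocyte sums were 6.93 and 8.14% of the mean input, against 16, 20.4 and 8.06%. List therefore cannot be fully told apart from the saline injection or pump.

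The inputs themselves differed between the tissues. Of the 44 members, 31 were lower and none higher in MHb than in IPN inputs (4 against 12 libraries), against 16.5% and 16.3% of all genes, and the median log2 difference was -0.90. The count was 25 without the first baseline MHb input. Acta2 and Gfap, the filament protein of astrocytes, were picked out after their values were seen. Acta2 averaged 1.8 ± 0.771 CPM in MHb inputs and 24.5 ± 23 CPM in IPN inputs (SD, n = 4 and 12), a log2 difference of -3.68 ± 0.78 (adjusted p 0.00158). Gfap averaged 32.3 ± 1.52 CPM in MHb inputs and 124 ± 26.7 CPM in IPN inputs (SD, n = 4 and 12), a log2 difference of -1.88 ± 0.16 (adjusted p 9.14e-10). Aldoc and Fabp7 were not called. Aldoc averaged 533 ± 69.4 CPM in MHb inputs and 669 ± 130 CPM in IPN inputs (SD, n = 4 and 12), a log2 difference of -0.27 ± 0.13 (adjusted p 0.111). Fabp7 averaged 119 ± 20.2 CPM in MHb inputs and 162 ± 44.9 CPM in IPN inputs (SD, n = 4 and 12), a log2 difference of -0.38 ± 0.20 (adjusted p 0.141). Both had groups that overlapped. Cnp averaged 313 ± 65 CPM in MHb inputs and 655 ± 138 CPM in IPN inputs (SD, n = 4 and 12), a log2 difference of -1.01 ± 0.17 (adjusted p 3.59e-05). Rgs5 averaged 44.9 ± 14.4 CPM in MHb inputs and 90.7 ± 28 CPM in IPN inputs (SD, n = 4 and 12), a log2 difference of -0.96 ± 0.23 (adjusted p 0.00259). Aldoc was called lower without baseline input 4 of the Epyc line (-0.30). The calls of Olig1 and Ctss were lost without single libraries, with log2 differences of -0.43 to -0.48 for Olig1 and -0.57 to -0.70 for Ctss. The protocols amplified a larger amount of RNA for MHb than for IPN libraries, so tissue and amount cannot be told apart, and every percentage above is taken against the inputs of its own line.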

How the data were processed

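Each deposited file lists whole-number read counts by gene symbol for a library. The submitters' processing notes name STAR 2.3.0e, HTSeq and mm10, without settings. cDNA was amplified and no molecular identifiers or strand marking are named, per the labels' protocols. Reads outside genes, ambiguous or not unique stayed out of library sizes and tests.

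Tests ran over the 22682 symbols found in every file, or 71.6 to 98.3% of counts per library. edgeR 4.0.16 (R 4.3.3) was used with TMM scaling, a filter at a minimum count of 10, robust quasi-likelihood tests and Benjamini-Hochberg adjustment over all genes tested, with calls at an adjusted p under 0.05. Control IPs and inputs of each line were fitted alone, and differences between lines in 1 fit of 36 libraries. DESeq2 1.42.0 was an alternative. Others were scaling, the filter, the gene list, pairing and leaving out each library. Tables and plots used Python 3.11.15 with pandas 2.3.3, scipy 1.17.1 and matplotlib 3.10.9. On simulated counts, of 100 genes changed by 1 log2 unit and 100 changed by 2, the ChAT comparison recovered 62 and 97 (15076 genes tested, 6 false calls), the Chrna5 comparison 57 and 94 (14114 genes, 10 false calls) and Epyc nicotine 52 and 81 (13476 genes, 8 false calls). The changed genes were few, none among the least abundant, and went equally in both directions. No Amigo1 comparison was simulated, so these rates do not cover that line or genes near the floor.

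Members, lists and tests were chosen with earlier results of these data known. Genes given in full were, per class, those with the smallest and the largest median difference over the lines, members not lower in at least 2 lines, and members called higher anywhere. IPs and inputs of one pool came from one homogenate, per the labels, which is the source of the pairing. Deviations of an IP and an input of one pool correlated at 0.42 in the ChAT line, 0.183 to 0.285 in the Chrna5 line, 0.0688 to 0.0976 in the Amigo1 line and 0.034 to 0.0551 in the Epyc line. The ChAT line had only 2 such pools, both at 0.42, which are not 2 separate checks. Only matched pools are given, so these values do not test the pairing. Exons of 10 members overlap another gene (GENCODE M21), and without strand their reads may be shared: Aldh1l1, Slc1a2, Mobp, Cnp, Ermn, Pdgfra, Olig1, Cx3cr1, Csf1r and P2ry12.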

Additional observations from a re-analysis of the deposited data

Results flagged for a closer look

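Among 36 tests of class sums within groups of 4 to 9 libraries, 5 had 1 library far from the others. The nominal rate of chance flags is about 1 in 20 groups. The classes share libraries, so these tests are not independent. The first ChAT baseline IP was the highest control IP of its line for astrocyte genes (1011 CPM, the next 451 CPM), for precursor and lineage genes (63.9 CPM, the next 32.1 CPM) and for microglial genes (17.9 CPM, the next 9.94 CPM). The Epyc saline pump IP was highest for endothelial genes, at 8.02 CPM with the next at 2.49 CPM. The second saccharin saline ChAT input was highest for mural genes, at 75.5 CPM with the next at 49.5 CPM.

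Effects of IP against input differed between lines for some members by the test of the difference itself. The count was 10 members between the ChAT and Chrna5 lines, against 10.7% of all genes called higher and 9.2% lower. It was 5 members between the Chrna5 and Amigo1 lines, against 1.89% of all genes higher and 2.53% lower. It was 2 members between the Amigo1 and Epyc lines, against 2.96% of all genes higher and 2.05% lower. Whether members were called more often than other genes was not tested.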

How the results depend on the processing

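DESeq2 size factors, library size alone and the symbols shared by only the libraries compared left every count of members within 1.5 times its value. Without a filter on low counts, 3 members were called between the Chrna5 and Amigo1 lines, and 1 gene of all for Amigo1 nicotine. DESeq2 called 9 members between the Chrna5 and Amigo1 lines, 19 between the ChAT and Chrna5 lines, 7 between Amigo1 and Epyc IPs, 9 for Amigo1 nicotine and 1 for the gene list. Of all genes, DESeq2 called 1304 between the Chrna5 and Amigo1 lines, 768 between the Chrna5 and Epyc lines, 1841 between Amigo1 and Epyc IPs, 1652 for Amigo1 nicotine, 89 for Epyc nicotine, 518 for ChAT nicotine and 1480 for the gene list. In fits of 2 lines alone, 1 member was called between the Amigo1 and Epyc lines, 13 between the Chrna5 and Amigo1 lines and 1 between the Chrna5 and Epyc lines (796 of all genes). Fitted with the Chrna5 IPs, Amigo1 and Epyc IPs differed in 3 members, and fitted with the Amigo1 IPs, Epyc nicotine called 0 genes.

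With a term for the gene list, 2 members were called in the Amigo1 line, 5 in the Epyc line, 0 between the Chrna5 and Amigo1 lines and 5 between the ChAT and Chrna5 lines. The counts of all genes were then 2941 in the ChAT line, 304 in the Amigo1 line, 296 in the Epyc line, 3 between the Chrna5 and Amigo1 lines, 3 between the Chrna5 and Epyc lines and 1170 between the ChAT and Chrna5 lines. This term turned Aldh1l1 (0.182), Slc1a3 (0.347) and Rgs5 (0.485) in the Amigo1 line and Cdh5 (0.177) in the Epyc line. The term is estimated from ChAT control IPs alone, so it cannot separate list from fraction in these lines. The ChAT control IPs on the second list were all described with a saline injection or pump.

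In pools with both fractions, the replicate block called 5 members between the ChAT and Chrna5 lines, where Slc1a2 turned to -1.14 and Vtn to -0.0502, and 2578 of all genes in the Amigo1 line. The same pools without the block gave 3401 genes in the ChAT line. With the block, 38, 43, 29 and 41 members were called in the ChAT, Chrna5, Amigo1 and Epyc lines, and without it 38, 42, 26 and 40. A block on replicate numbers that IPs merely share gave 323 genes for Amigo1 against Epyc IPs, 133 for Amigo1 nicotine, 51 for Epyc nicotine and 975 for ChAT nicotine, with member calls of 1, 0, 0 and 0.

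Leaving out 1 library at a time gave 33 to 35 members in the ChAT line, 42 to 44 in the Chrna5 line, 25 to 39 in the Amigo1 line and 38 to 40 in the Epyc line. It gave 6 to 16 between the ChAT and Chrna5 lines, 1 to 9 between the Chrna5 and Amigo1 lines, 1 to 5 between the Amigo1 and Epyc lines, 0 to 1 between the Chrna5 and Epyc lines, 1 to 5 between Amigo1 and Epyc IPs, 0 to 1 for ChAT and Epyc nicotine, 0 for Amigo1 nicotine, 25 to 32 between the inputs and 0 to 1 for the gene list. Of all genes it gave 304 to 1099 between the Chrna5 and Amigo1 lines, 222 to 522 between the Chrna5 and Epyc lines, 0 to 22 for Amigo1 nicotine, 0 to 73 for Epyc nicotine, 0 to 1024 for ChAT nicotine and 463 to 1460 for the gene list. Kdr ran from -4.31 (without the saline pump IP) to 2.29 in the Amigo1 line, and was -4.46 with baseline libraries only. Class sums as a share of input moved by more than 1 SD in 4 of 42 values with TMM over all 44 libraries and in 13 of 42 with the median over members. Leaving out each library in turn, which was added after seeing the data, moved 15 of 168 class means by more than 1.5 times. Over all single members and alternatives, 14009 values kept direction and call, 154 gained a call, 286 lost one and 8 reversed.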

Other observations

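A split of the ChAT IPs by procedure was noticed after the values were seen and was not tested. The split follows the sample descriptions, and it may not separate saline from no saline, since the library names of the 4 baseline IPs, which are among the other 8, also hold the word saline. The 4 IPs described with a saline injection or a saline pump had lower sums than most of the other 8. Their astrocyte sums were 5.85 to 8.14% of the mean input, against 8.38 to 50.3% in the other 8. Microglial sums were 4.83 to 9.76%, against 11.9 to 31.5%, and mural sums 2.24 to 8.78%, against 13.7 to 62.2%. These 3 classes did not overlap. Oligodendrocyte sums, at 4.54 to 7.26% against 5.77 to 33.3%, precursor sums, at 2.98 to 7.43% against 5.19 to 30.4%, and endothelial sums, at 34.4 to 69% against 65.9 to 218%, did. The library numbers of the 4 IPs are 745 to 852 and those of the other 8 are 1091 to 1141, so procedure and library number cannot be told apart.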
